A study of Mus musculus with 8 samples.

Results

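Blood vessels of the brain are lined by endothelial cells, whose tight junctions and transporters form the blood–brain barrier. Pericytes sit on the outer face of capillaries and are recruited by platelet-derived growth factor signalling, while smooth muscle cells wrap arteries and arterioles and contract through an actin and myosin apparatus. Pericytes and smooth muscle cells together are called mural cells. In the ventricular-subventricular zone (V-SVZ), the stem cell niche along the lateral ventricle, vessels lie close to neural stem cells.

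The genes described here were 32 markers of these cells among the 54307 genes of the count table, taken by name from a list that was drawn up with earlier results of these data known. They were 21 endothelial genes, 7 pericyte genes and 4 smooth muscle genes, and the classes were kept apart. Bulk RNA-seq had been done on the dissected periventricular area of 4 *Lrig1* knockout (KO) and 4 wild-type (WT) littermate mice, all 8 weeks old and on the 129-Elite background. KO mice were homozygous for CreERT2 knocked into exon 1 of *Lrig1*, a constitutive loss of the gene, and WT mice carried no CreERT2 allele. WT held 3 females and 1 male, and KO held 2 females and 2 males. The question asked of these genes was whether the vessel RNA of this tissue differed between KO and WT. In bulk tissue, fewer cells of a type and less RNA per cell cannot be told apart.

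Depth was between 47887437 and 74482334 counts per mouse. *Lrig1* was measured at 45.6, 13.5, 41.4 and 34.3 CPM (the count scaled to a common library total) in WT mice 1 to 4 and at 1.41, 4.15, 1.17 and 2.96 CPM in KO mice 1 to 4, with no overlap. The log2 fold change of *Lrig1* was -3.80, with an adjusted p of 0.286 in edgeR and 4.46e-08 in DESeq2. All CPM values are normalized for library composition, KO is always compared with WT, and differences were tested by quasi-likelihood in edgeR over all 17669 genes that passed a filter on low counts, with p-values adjusted after Benjamini-Hochberg and a threshold of 0.1.

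All 3 classes were measured in every mouse. On a scale that also divides by transcript length (TPM), the highest members were the endothelial genes *Itm2a*, with a mean of 58.2 TPM, and *Ly6c1*, with 54.8 TPM. The pericyte gene *Vtn*, which encodes the matrix protein vitronectin, followed at 43.1 TPM. The glucose transporter *Slc2a1* was at 39.2 TPM, the tight junction gene *Cldn5* at 38.8 TPM and the pericyte gene *Rgs5*, a regulator of G-protein signalling, at 33.1 TPM. The lowest levels were those of the smooth muscle myosin heavy chain *Myh11*, at 1.07 TPM, the pericyte surface peptidase *Anpep*, at 0.87 TPM, and the smooth muscle gene *Cnn1*, at 0.18 TPM. In this order, 28 of the 31 pairs of neighbours had overlapping ranges over the 8 mice. Gaps between ranges lay only below the organic anion transporter *Slco1c1*, below the VEGF receptor *Kdr* and below *Anpep*.

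**Figure D1:**
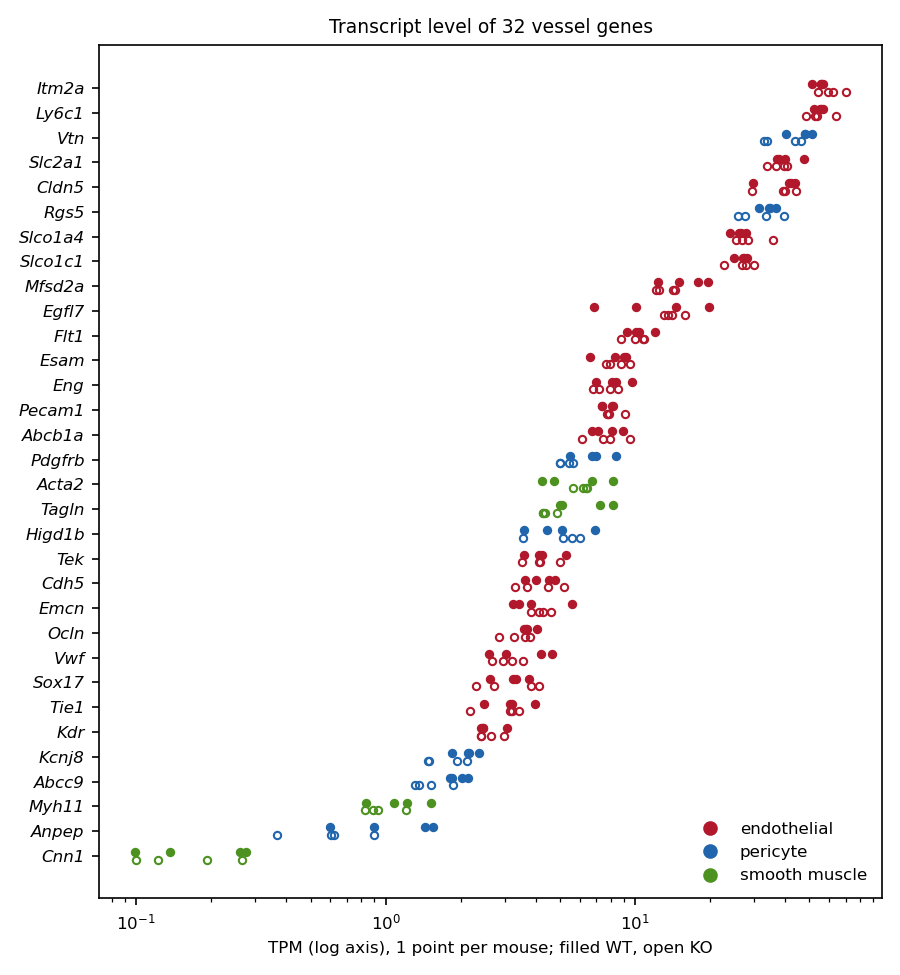
Transcript level (TPM, log axis) of the 32 vessel genes in each of the 8 mice, with filled points for WT, open points for KO and colour for the class. Levels ran from about 0.18 TPM for *Cnn1* to 58.2 TPM for *Itm2a*, and WT and KO points were intermixed for most genes; *Egfl7* lacks transcripts that the reference used here does not hold.

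*Cnn1*, which encodes the contractile protein calponin, was too low to test, with 2 to 12 counts per mouse and 0.034 to 0.196 CPM, so the contractile class rested on *Acta2*, *Tagln* and *Myh11*. The other 31 members passed the filter on low counts. None of the 31 was called at an adjusted p under 0.1, against 0.00566% of all genes, and DESeq2 called none either. The edgeR fit did not call *Lrig1* itself, at a log2 fold change of -3.80 and an adjusted p of 0.286. The lack of a call in edgeR therefore does not show that a member was unchanged. Unadjusted p was under 0.05 for 1 of the 31, *Pdgfrb*, against 1.88% of all genes, and it was lower in KO, as 1.08% of all genes were at that p. The KO and WT mice overlapped for all 31 members, whereas 1.53% of all genes had groups that did not overlap. The adjusted p of every tested member rounded to 1.0 in edgeR, and 17 members had a log2 fold change below 0 and 14 above 0, where 50.3% of all genes were below 0.

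**Figure D2:**
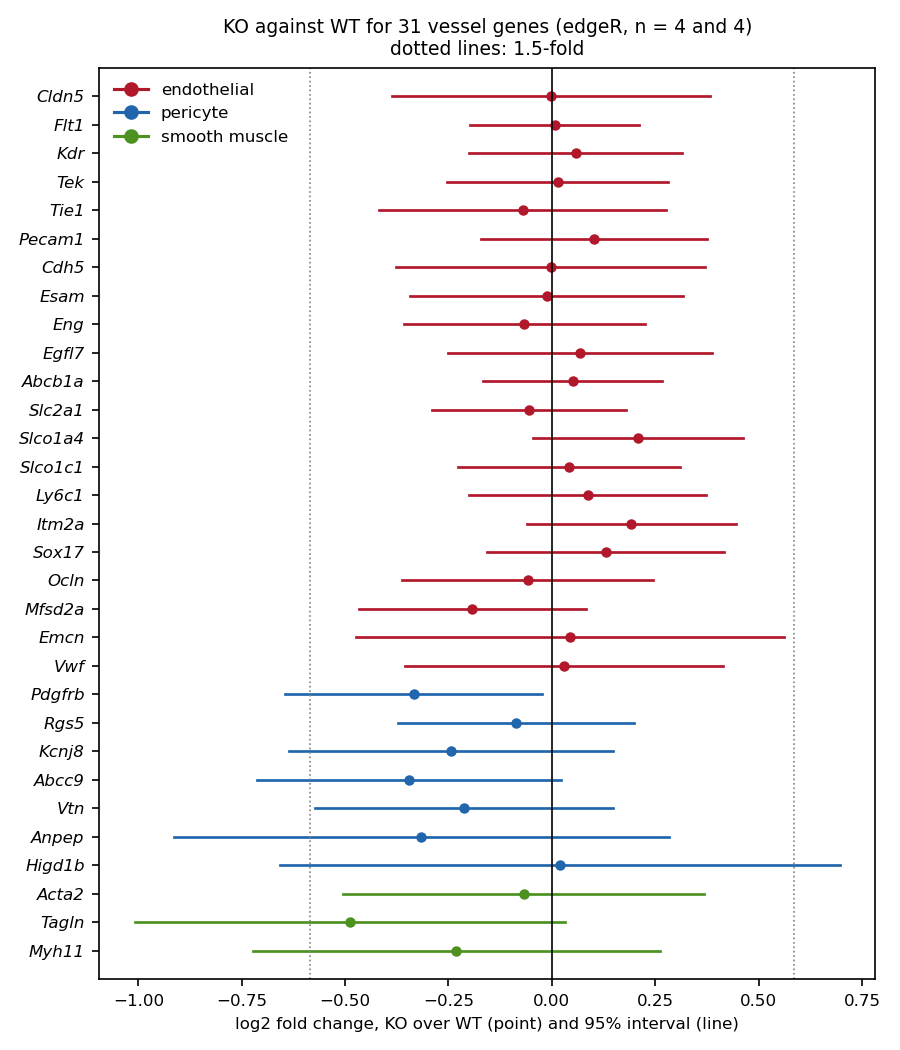
Log2 fold change of KO over WT (points) with its 95% interval (lines) for the 31 tested vessel genes, coloured by class, with dotted lines at 1.5-fold. Endothelial points lay between -0.19 and 0.21 with every interval inside the dotted lines, and 9 of the 10 mural points lay below 0 with wider intervals.

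Endothelial genes were at nearly the same level in KO and WT. The median log2 fold change of the 21 was 0.03, beside -0.00094 over all genes tested, with 8 members below 0 and 13 above. The members ranged from -0.19 for *Mfsd2a* to 0.21 for *Slco1a4*. The 95% interval of each of the 21 held 0 and stayed within 1.5-fold in both directions, the lowest bound being -0.47 and the highest 0.56. The summed level of the class was 324.0, 348.9, 340.3 and 360.1 TPM in WT mice 1 to 4 and 320.9, 327.5, 382.7 and 351.1 TPM in KO mice 1 to 4. The sums overlapped, at 343 ± 15.2 TPM in WT and 346 ± 27.9 TPM in KO (SD, n = 4 each).

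Among the receptors, *Flt1*, which encodes VEGF receptor 1, was the most tightly measured. *Flt1* was at 46.9, 44.2, 57.8 and 53.5 CPM in WT and at 49.4, 50.0, 51.2 and 52.9 CPM in KO. The KO mice lay inside the WT range, with a log2 fold change of 0.0074 (SE 0.090, 95% interval -0.20 to 0.21). The main signalling receptor for VEGF, *Kdr*, differed by 0.06. The angiopoietin receptor *Tek* differed by 0.01, its relative *Tie1* by -0.07 and the TGFβ family co-receptor *Eng* by -0.07.

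Of the junction genes, *Cldn5*, the main claudin of brain endothelium, was at 26.6, 33.7, 42.2 and 32.5 CPM in WT and at 39.5, 25.7, 32 and 37.6 CPM in KO. The groups spanned nearly the same range, with a log2 fold change of -0.0016 (SE 0.17). The log2 fold change was -0.06 for the tight junction gene *Ocln*, -0.0030 for VE-cadherin (*Cdh5*), 0.10 for *Pecam1* and -0.01 for *Esam*, the latter being adhesion molecules between endothelial cells.

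Transporters of the barrier held the largest endothelial differences, in both directions, and none passed the test. *Slco1a4*, an organic anion transporter, was at 37.7, 32, 43.0 and 33.6 CPM in WT and at 43.2, 41.0, 47.4 and 37.3 CPM in KO. All KO mice were above WT mice 2 and 4, and KO mice 1 and 3 were above every WT mouse (log2 fold change 0.21, SE 0.11, unadjusted p = 0.097 in edgeR). *Mfsd2a*, which carries lysophospholipids and restrains vesicle transport across the endothelium, was at 15.9, 16.9, 21.4 and 21.2 CPM in WT and at 18.1, 17.1, 15 and 15.7 CPM in KO. Its values overlapped between 15.9 and 18.1 CPM (log2 fold change -0.19, SE 0.12, unadjusted p = 0.146 in edgeR). *Slc2a1* was at 82.3, 66.8, 89.4 and 91.1 CPM in WT and at 80.2, 85.1, 73.0 and 78.9 CPM in KO, so that the KO mice lay inside the WT range (-0.06, SE 0.10). The efflux pump *Abcb1a* differed by 0.05 and *Slco1c1*, which carries thyroid hormone, by 0.04.

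Of the remaining endothelial genes, the membrane protein *Itm2a* was at 65.4, 55.6, 72.9 and 51.1 CPM in WT and at 69.4, 67.1, 74.9 and 68.5 CPM in KO, with only WT mouse 3 in the KO range (log2 fold change 0.19, SE 0.11, unadjusted p = 0.118 in edgeR). The arterial transcription factor *Sox17* differed by 0.13, *Ly6c1* by 0.09, the secreted factor *Egfl7* by 0.07, the sialomucin *Emcn* by 0.04 and von Willebrand factor (*Vwf*) by 0.03. The counts of *Ly6c1*, *Abcb1a* and *Slco1a4* could include reads of close copies of these genes. *Ly6c2* had 2 to 10 counts, *Abcb1b* 83 to 124 and the other *Slco1a* genes no more than 9, and adding them to their partners left the class median at 0.03.

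Pericyte genes had a log2 fold change below 0 for 6 of the 7 members, and 1 of the 7 had an unadjusted p under 0.05. The median log2 fold change of the class was -0.24, within a range of -0.35 to 0.02, and 6 of the 7 intervals held 0. Only 2 of the 7 intervals stayed within 1.5-fold, and all 7 stayed within 2-fold. The summed level was 87.53, 102.1, 102.3 and 102.3 TPM in WT and 85.66, 70.73, 101.9 and 82.51 TPM in KO. The sums overlapped through WT mouse 1 and KO mouse 3, at 98.5 ± 7.34 TPM in WT and 85.2 ± 12.9 TPM in KO (SD, n = 4 each).

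*Pdgfrb*, the receptor through which pericytes are recruited, was at 22.3, 23.5, 32.4 and 29.8 CPM in WT and at 24.6, 20.1, 21.5 and 19.5 CPM in KO. WT mice 3 and 4 were above every KO mouse, and WT mice 1 and 2 lay below KO mouse 1. The mean was 27.0 ± 4.87 CPM in WT and 21.4 ± 2.25 CPM in KO (SD, n = 4 each). The KO level was 79.3% of WT, with a log2 fold change of -0.33 (SE 0.14, 95% interval -0.64 to -0.023) and an unadjusted p of 0.0379 in edgeR. It ranked 230 of 17669 genes by p and did not pass the adjustment. On the per-length scale *Pdgfrb* overlapped as well, since WT mouse 1 was at 5.48 TPM and KO mouse 3 at 5.62 TPM.

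*Abcc9* and *Kcnj8*, neighbouring genes that encode the regulatory subunit and the pore of a potassium channel of pericytes, were both lower on average in KO without passing the test. *Abcc9* was at 11.4, 8.85, 13.6 and 8.89 CPM in WT and at 8.16, 7.48, 9.81 and 8.17 CPM in KO. Only KO mouse 3 rose above the lowest WT mouse (log2 fold change -0.35, SE 0.16, unadjusted p = 0.0623 in edgeR). *Kcnj8* was at 4.07, 3.17, 4.18 and 2.79 CPM in WT and at 2.99, 2.45, 3.35 and 3.20 CPM in KO, with WT mouse 4 below 3 of the KO mice (-0.24, SE 0.17).

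*Vtn* was at 46.1, 51.1, 63.1 and 48.2 CPM in WT and at 56.4, 37.0, 49.0 and 37.3 CPM in KO. KO mice 2 and 4, the females, were below every WT mouse and KO mice 1 and 3 were within the WT range (-0.21, SE 0.16). *Anpep* had 62 to 176 counts per mouse and a wide interval, from -0.91 to 0.28, around a log2 fold change of -0.32. *Rgs5* differed by -0.09 (SE 0.13), and *Higd1b*, of a hypoxia-inducible gene family, by 0.02 (SE 0.30) with 46 to 125 counts per mouse.

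**Figure D3:**
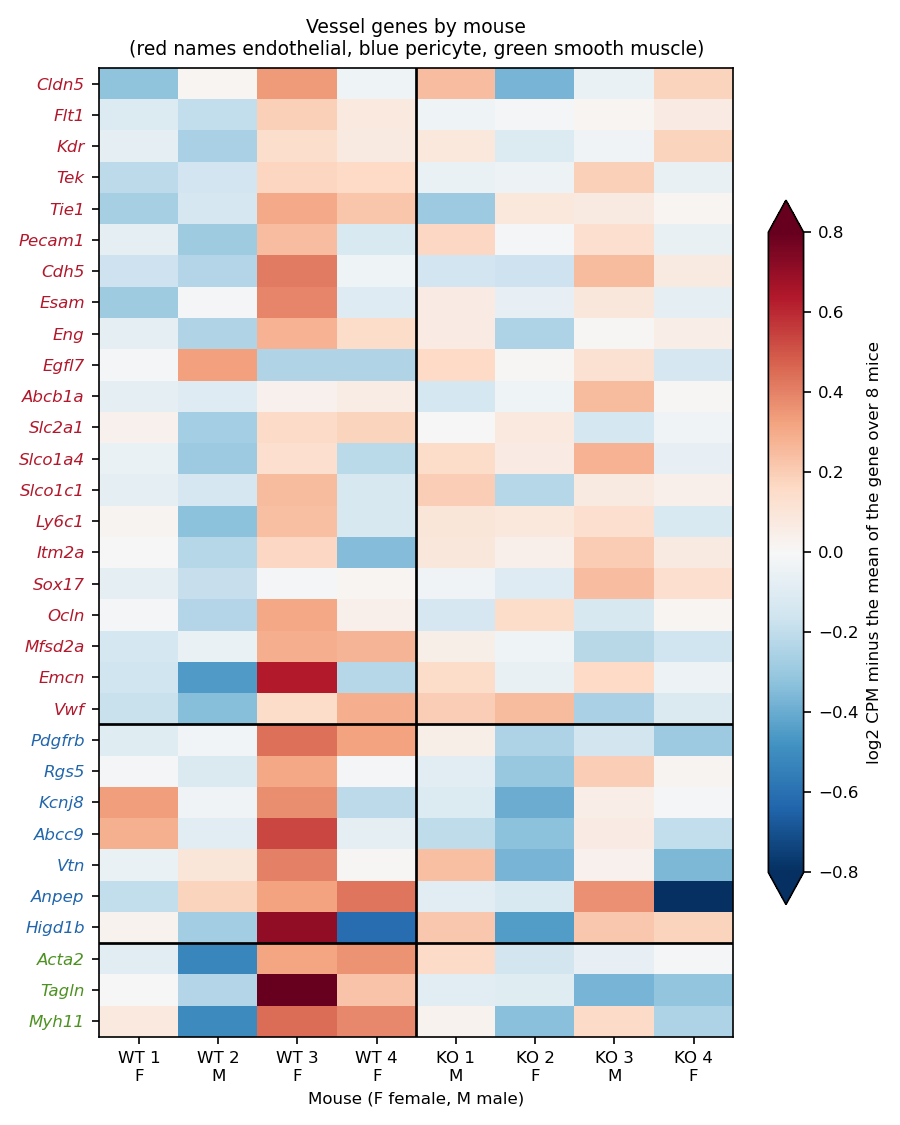
Log2 CPM of each tested vessel gene in each mouse, minus the mean of that gene over the 8 mice (colour, limited to 0.8 in either direction; red is higher). WT mouse 3 is the reddest column and holds the highest value of 12 of the 21 endothelial, 6 of the 7 pericyte and 2 of the 3 smooth muscle genes, while KO mice 2 and 4 are blue for most pericyte genes.

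Smooth muscle genes had a log2 fold change below 0 for all 3 tested members, none with an unadjusted p under 0.05, and their median was -0.23. The sign of *Acta2* depended on the scale and the fit. It averaged 5.97 TPM in WT and 6.16 TPM in KO, and its log2 fold change was below 0 in 16 of 21 alternative fits. *Tagln*, which encodes the actin-binding protein transgelin, was at 5.25, 4.47, 9.61 and 6.16 CPM in WT and at 4.96, 4.91, 4.06 and 4.22 CPM in KO. WT mouse 3 was far above the rest and WT mouse 2 lay among the KO mice (log2 fold change -0.49, SE 0.23, 95% interval -1.01 to 0.03, unadjusted p = 0.0622 in edgeR). *Myh11* was at 5.31, 3.53, 6.84 and 6.57 CPM in WT and at 5.12, 3.99, 5.58 and 4.24 CPM in KO, and *Acta2*, smooth muscle actin, was at 6.57, 4.89, 8.72 and 9.01 CPM in WT and at 7.81, 6.33, 6.71 and 6.97 CPM in KO. In both genes the lowest of the 8 mice was WT mouse 2, the male, and the groups overlapped (log2 fold changes -0.23 with SE 0.22 and -0.07 with SE 0.19). Summed TPM of the class was 11.18, 10.22, 16.38 and 17.06 in WT mice 1 to 4 and 11.9, 11.45, 12.08 and 11.5 in KO mice 1 to 4. WT mice 1 and 2 lay below every KO mouse, and WT mice 3 and 4 lay above every KO mouse. The sums thus overlapped, at 13.7 ± 3.51 TPM in WT and 11.7 ± 0.308 TPM in KO (SD, n = 4 each).

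**Figure D4:**
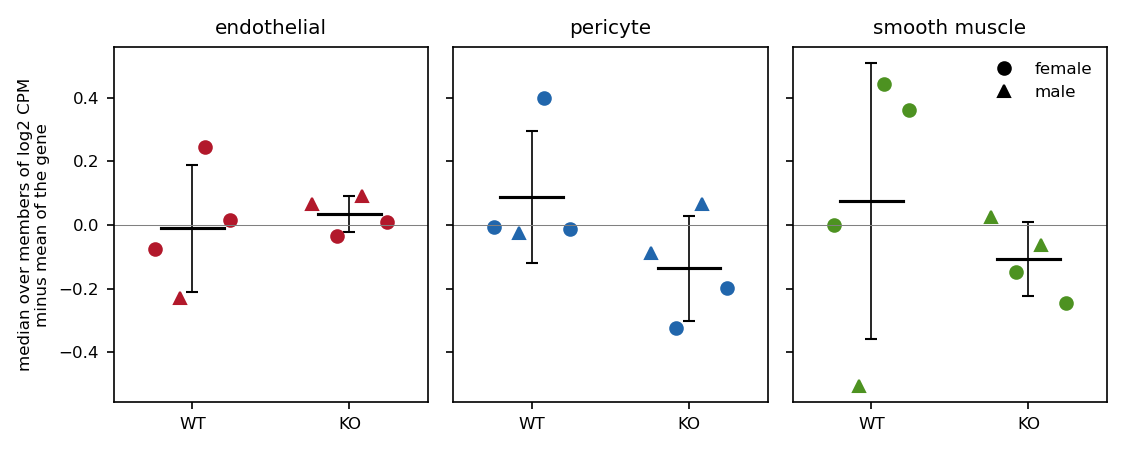
Median over the members of each class of log2 CPM minus the gene's mean, per mouse (circles female, triangles male), with the group mean and SD as bars. In WT the SD was 0.20, 0.21 and 0.43 for endothelial, pericyte and smooth muscle genes, in KO 0.06, 0.17 and 0.12, and the groups overlapped in each class.

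The classes did not move alike from mouse to mouse. The pericyte value minus the endothelial value of each mouse, each the median over the class of log2 CPM relative to the gene's mean, was 0.068, 0.204, 0.154 and -0.028 in WT and -0.155, -0.292, -0.025 and -0.209 in KO. WT mouse 4 and KO mouse 3 met near 0 and the other mice were separated by genotype, with means of 0.10 ± 0.10 in WT and -0.17 ± 0.11 in KO (SD, n = 4 each). No test is given for this difference, because the classes were chosen with earlier results of these data known. Smooth muscle minus endothelial ranged from -0.28 to 0.35 in WT and from -0.26 to -0.04 in KO.

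WT mouse 3 carried much of the spread. Without it the pericyte median was -0.16, the smooth muscle median -0.12 and the endothelial median 0.12, and *Pdgfrb* and *Tagln* stood at -0.23 and -0.22. Its high place in the endothelial class depended on the scale, since its summed endothelial TPM of 340.3 lay within the range of the other WT mice. Its pericyte sum of 102.3 TPM was close to those of WT mice 2 and 4. Its smooth muscle sum of 16.38 TPM stayed above every KO mouse and was below WT mouse 4 alone. Without KO mouse 4 the pericyte median was -0.13, and without KO mouse 2 it was -0.16. Without WT mouse 2 the smooth muscle median was -0.40, and without WT mouse 4 it was -0.14. Without WT mouse 1 or WT mouse 2 the endothelial median was -0.03.

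The sexes were also looked at apart, with a single male in WT. Among females, the KO mean was below the WT mean for 17 of 21 endothelial, 7 of 7 pericyte and 3 of 3 smooth muscle genes. Against the single male WT mouse, the mean of the 2 male KO mice was lower for 2 of 21, 3 of 7 and 0 of 3. That male, WT mouse 2, was the lowest of all 8 mice for 11 endothelial and 2 smooth muscle genes. Its *Lrig1* was at 13.5 CPM, against 34.3 to 45.6 CPM in the other WT mice. Its tissue also stood apart in its neuronal markers, with the 8 striatal markers summing to 2400 TPM against 5270 to 6060 TPM in the other WT mice and 3540 to 5440 TPM in KO, and the 8 cortical markers to 982 TPM against 33.0 to 161 TPM in the other WT mice. The part of this in the values by sex was not tested. In the females alone, the medians were -0.06 for endothelial, -0.49 for pericyte and -0.59 for smooth muscle genes, again with no member called (3 WT and 2 KO mice, lowest adjusted p of a member 0.844 in edgeR).

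The difference between the sexes was tested as a genotype-by-sex term, where a value above 0 means a less negative or more positive KO difference in males. It was above 0 for 30 of the 31 members, all sharing the same single male WT mouse, and the class medians were 0.29, 0.54 and 0.85, beside 0.01 over all genes. An unadjusted p under 0.05 was reached by 2 of the 31, both smooth muscle genes, against 7.48% of all genes. No member was called in edgeR, where 0.00566% of genes were. For *Myh11* the term was 1.2 (SE 0.29, unadjusted p = 0.00348, adjusted p = 0.621 in edgeR), and DESeq2 gave 1.18 with an adjusted p of 0.0805, under the threshold that 1.69% of genes passed there. *Myh11* averaged 6.24 CPM in WT females, 4.12 CPM in KO females and 5.35 CPM in KO males, and stood at 3.53 CPM in the WT male. All KO mice lay below WT in females and above WT in males for *Myh11* alone among the members, and 6.63% of all genes had groups set in opposite directions in this way. For *Acta2* the term was 0.85 (unadjusted p = 0.0256, adjusted p = 0.63 in edgeR). Between males and females with genotype in the fit, no member was called, against 3.72% of all genes. In that fit 3 of the 31 had an unadjusted p under 0.05, against 15.9% of all genes, with *Egfl7* higher in males by 0.32 and *Slc2a1* and *Ocln* at -0.22 and -0.27 on the log2 scale.

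**Figure D5:**
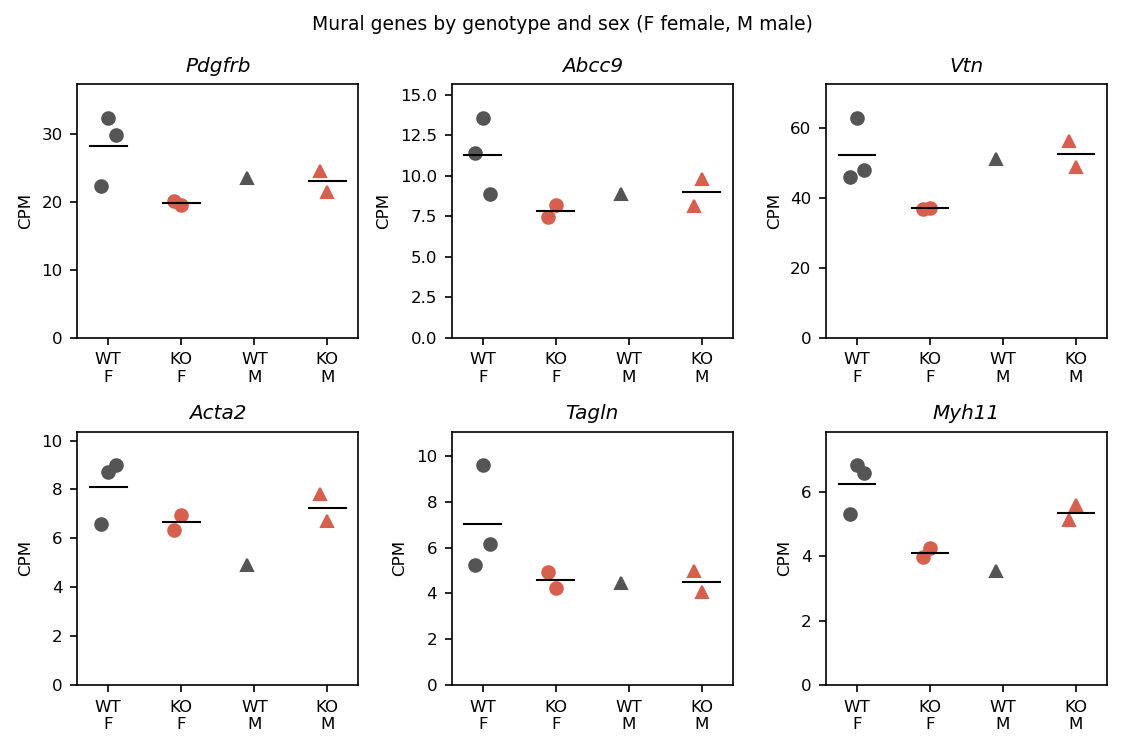
CPM of 3 pericyte genes (top) and 3 smooth muscle genes (bottom) by genotype and sex (F female, M male), 1 point per mouse and a line at the mean where there is more than 1 mouse. The mean of KO females lies below that of WT females in all 6 genes, while for *Myh11* and *Acta2* the KO males lie above the single WT male, at 3.53 and 4.89 CPM.

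Transcript shares were examined because 2 of the vessel genes make products that differ in function. *Flt1* makes a full-length membrane receptor of 1333 amino acids (*Flt1-202*) and a shorter, soluble receptor of 688 amino acids (*Flt1-203*), which binds VEGF without signalling. *Myh11* is spliced with or without a short exon known from fast-contracting smooth muscle. The coding bases where the transcripts part are given here from the Gencode M21 transcripts (GRCm38, minus strand), with the shared bases before and after in lower case and the diverging bases in capitals. The stretches in capitals lie at chr5:147639133-147639224 for *Flt1-203*, at chr5:147634432-147634523 for *Flt1-202* and at chr16:14248580-14248600 for the 21-base exon of *Myh11-204*, all within coding exons.
Flt1-203: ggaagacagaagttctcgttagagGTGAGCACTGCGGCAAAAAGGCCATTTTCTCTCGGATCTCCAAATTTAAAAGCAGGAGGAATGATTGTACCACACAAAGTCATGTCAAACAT
Flt1-202: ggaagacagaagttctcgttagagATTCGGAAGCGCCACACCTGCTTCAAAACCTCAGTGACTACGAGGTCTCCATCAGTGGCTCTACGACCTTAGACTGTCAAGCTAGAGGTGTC
Myh11-204: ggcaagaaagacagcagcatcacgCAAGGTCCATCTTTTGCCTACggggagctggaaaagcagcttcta
Myh11-201: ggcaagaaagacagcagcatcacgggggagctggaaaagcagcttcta

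The soluble form of *Flt1*, which reads on from the shared bases into the stretch beginning GTGAGCAC, held 39.7%, 36.7%, 38.8% and 36.5% of the gene's TPM in WT and 43.8%, 35.8%, 37.4% and 41.3% in KO. The groups overlapped, at 37.9% ± 1.58 in WT and 39.6% ± 3.64 in KO (SD, n = 4 each). The receptor form took nearly all of the rest, 61.1% ± 2.51 in WT and 60.3% ± 3.63 in KO. *Myh11-204*, which holds the short exon, took 70.8%, 56.9%, 55.0% and 61.8% in WT and 71.8%, 69.7%, 36.4% and 44.5% in KO, so that the KO mice spread on both sides of WT. Its 2 transcripts also differ at their ends, and the estimates rest on 216 to 421 counts per mouse.

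Of the 31 tested members, 19 had 2 or more transcripts above 10% of their TPM, 45 transcripts in all. Only 1 of the 45, or 2.22%, had groups without overlap, beside 2.21% of such transcripts over all genes. That was *Egfl7-215*, at 51.6%, 42.8%, 42.6% and 62.4% in WT and 35.3%, 40.1%, 39.6% and 29% in KO, among the *Egfl7* transcripts that the reference holds. Up to 683 *Egfl7* reads of a mouse fell on other transcripts, where the gene had 543 to 1127 counts per mouse. These values are therefore not shares of the whole gene. Transcripts annotated as targets of nonsense-mediated decay had similar mean shares in the groups for *Slc2a1* (27.9% ± 7.65 in WT and 28.1% ± 2.81 in KO) and for *Slco1c1* (37.2% ± 5.68 and 36.8% ± 4.51; SD, n = 4 each). The *Slc2a1* share was 16.4% in WT mouse 4 and between 26.0% and 32.2% in the other 7 mice.

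The wider set of vessel genes, 114 genes in 8 lists that were no members of the 3 classes, held growth signals, transcription factors, barrier genes and further mural genes. Of these, 107 were tested and none was called in edgeR. There were 68 below 0 and 39 above, with a median of -0.06, and 4 of the 107 (3.74%) had an unadjusted p under 0.05, beside 1.88% of all genes. By list, the medians were -0.08 for vessel growth signals (15 of 22 lower), -0.03 for endothelial transcription factors (10 of 18 lower), 0.03 for barrier junctions and transporters (8 of 17 lower), -0.0039 for arterial genes (5 of 10 lower), 0.05 for venous genes (4 of 8 lower) and -0.08 for genes of fenestrated and tip endothelium (5 of 6 lower). Other mural genes had a median of -0.16 with 11 of 15 lower, and other smooth muscle genes -0.12 with 14 of 18 lower. Groups did not overlap for 2 of the 17 barrier genes, for 1 of the 15 other mural genes, *Cox4i2*, and in no other list. The barrier genes were *Slc16a1*, higher in KO, and the junction gene *Tjp1*, lower in KO (log2 fold change -0.13). Over all genes tested the share without overlap was 1.53%.

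Among the other mural genes, *Cox4i2*, a cytochrome oxidase subunit, was at 2.06 CPM in WT and 1.32 CPM in KO (log2 fold change -0.64). WT mouse 3, at 3.26 CPM, was far above the other WT mice, at 1.89, 1.6 and 1.47 CPM, beside 1.2 to 1.41 CPM in KO. *Cspg4*, which encodes the NG2 proteoglycan of pericytes and also of oligodendrocyte precursors, was at 24.8 and 17.9 CPM (-0.47). Unadjusted p was 0.036 for *Cox4i2* and 0.040 for *Cspg4* in edgeR, and neither passed the adjustment. *Slc16a1*, a lactate transporter of the barrier, was at 39.7 CPM in WT and 49.3 CPM in KO (0.31, unadjusted p = 0.018 in edgeR), and the venous gene *Ackr1* at 18.9 and 15.9 CPM (-0.24, unadjusted p = 0.030 in edgeR). The genes with the smallest p among the growth signals were *Nrp2*, a VEGF co-receptor (0.77), *Notch1* (-0.29) and *Acvrl1*, a BMP receptor of endothelium (-0.52), none with an unadjusted p under 0.05.

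Markers of other cells of the tissue varied beside these values. Markers of cortical neurons differed the most between mice and were lower in KO for 8 of 8 genes, none called. Their summed level ran from 33.0 to 982 TPM in WT and from 15.3 to 432 TPM in KO, none was at 0, and it was highest in the males WT mouse 2, at 982 TPM, and KO mouse 3, at 432 TPM. With a cortical marker score in the fit, the class medians were 0.01 for endothelial, -0.25 for pericyte and -0.24 for smooth muscle genes. Markers of striatal neurons were lower in KO for 8 of 8 genes, with a median log2 fold change of -0.09. With sex in the fit that median was 0.11, so its sign depended on the fit. Their sums overlapped, at 2400 to 6060 TPM in WT and 3540 to 5440 TPM in KO. Those of oligodendrocytes were lower for 7 of 8, with a median of -0.07 and sums of 4280 to 5230 TPM in WT and 3860 to 5070 TPM in KO. Fibroblasts of the meninges and vessel walls, with 10 of 12 markers lower, summed to 40.6 to 69.1 TPM in WT and 40.0 to 56.7 TPM in KO. Microglia, with 7 of 8 lower, summed to 337 to 432 TPM in WT and 303 to 384 TPM in KO, and red blood cell markers, with 2 of 6 lower, to 679 to 1670 TPM and 662 to 1480 TPM. Over 12 such lists no marker was called in edgeR and none was at 0 in all mice. Apart from the fit with the cortical score, the part of these cells in the mural values was not tested.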

How the data were processed

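RNA of the periventricular area was sequenced as polyA libraries in 4 KO and 4 WT mice. The authors made the reads with bcl2fastq 2.20 and ran Salmon (version not given in the sources used here) on Gencode M29 (GRCm39). They deposited one table of estimated counts for genes, not normalized, and 8 tables that list transcripts with their estimated counts, TPM and lengths. How transcripts were summed to genes is not given in the sources used here, nor is the strand setting, so overlapping antisense genes cannot be told apart.

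Columns were matched to mice by the animal tags, which the names of each mouse's own transcript table also carry. The estimated counts were rounded and fitted over the whole table with edgeR 4.0.16 in R 4.3.3 (TMM, filterByExpr, quasi-likelihood test, no covariates, Benjamini-Hochberg adjustment, threshold 0.1). A standard error is the log2 fold change over the square root of F. TPM of a gene is the sum over its transcripts in Gencode M21 (GRCm38), used here for names, sums and transcript sequences alone. It held 97.4% of the transcripts, which took 99.2% of the reads or more in every mouse. For *Egfl7*, with 543 to 1127 counts per mouse, up to 683 reads of a mouse fell on transcripts outside it. Gene names were found for 94.8% of identifiers.

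Members and lists were chosen with earlier results of these data known. All members are reported, and of each other list the genes with the 3 smallest p were eligible to be named. *Tjp1* was named in addition, after its values were seen. Alternatives were DESeq2 1.42.0, other filters, size factors, length offsets, a robust fit, sex, replicate number or 1 surrogate variable (sva 3.50.0) as a covariate, females alone, log2(TPM + 0.1), sums of gene copies and each mouse left out; the cortical score as a covariate was added after seeing the data. The fit was first tested on simulated counts of 17669 genes, of which 200 were given a log2 change of 2. It called 200 of the 200, with 15 other calls. Smaller changes, such as those of the members, were not simulated. The p-values rest on the spread between mice of a group, which edgeR estimates with help from the other genes tested. A group held 4 mice, except with females alone or a mouse left out. The genotype-by-sex term rests on 1 WT male.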

Additional observations from a re-analysis of the deposited data

Results flagged for a closer look

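In groups of 4 mice, a mouse was marked where its gap to the nearest of the others took up most of the range of the group. Of 70 groups looked at, 4 were marked, or 5.71%, where chance marks about 1 in 20. *Tek* stood at 15.7 CPM in KO mouse 3, with the next KO mouse at 13.4 CPM. *Slco1c1* stood at 65.5 CPM in WT mouse 3, with the next WT mouse at 52.1 CPM. *Higd1b* stood at 1.05 CPM in KO mouse 2, with the next KO mouse at 1.62 CPM. The summed pericyte level of WT mouse 1, 87.5 TPM, lay below the 102 TPM of the other WT mice. Its *Vtn* was at 40.4 TPM, against 48.1 to 51.3 TPM in the other WT mice. For *Myh11*, every KO female was below every WT female and both KO males were above the WT male, and the genotype-by-sex term was 1.2 on the log2 scale (adjusted p = 0.621 in edgeR and 0.0805 in DESeq2). WT held a single male, so sex and that mouse cannot be told apart within WT. The pattern of opposite directions was shown by 6.63% of all genes tested.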

How the results depend on the processing

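No member was called under any of the 20 planned and 1 added alternative fits, in which the lowest adjusted p of a member was 0.586 in DESeq2 or edgeR. Over these and the TPM scale, the pericyte and smooth muscle medians were below 0 in 22 of 22 alternatives and the endothelial median in 4 of 22. With females alone the medians were -0.49 for pericyte and -0.59 for smooth muscle genes. Leaving out each mouse in turn gave -0.03 to 0.12 for endothelial, -0.32 to -0.13 for pericyte and -0.40 to -0.12 for smooth muscle genes. DESeq2 and the fit without a filter include *Cnn1* and gave -0.32 and -0.31 for smooth muscle. Of the 31 members, 11 kept one sign in the main result and all alternatives. The genes called over the whole table, 1 here, numbered 2 with sex as a covariate, 3 with 1 surrogate variable, 12 in DESeq2, 201 in DESeq2 with sex, 2 without a filter, 0 at 10 counts or more in every mouse, 2 with the cortical score, 3 with females alone and 0 to 3 with a mouse left out. The cause of these shifts was not tested. Replicate numbers did not pair the mice, with correlations of same-numbered mice of 0.077, -0.225, -0.225 and 0.267. The replicate block gave 0 genes called and class medians of 0.03, -0.24 and -0.20.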
